A study of Mus musculus with 12 samples.

Results

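Auts2 is a very long neurodevelopmental gene of mouse chromosome 5, and its open chromatin was followed in 2 populations of cortical projection neurons. Its members here are the ATAC-seq peaks that overlap the interval chr5:131900000-133050000 (mm9, counted from 1, 1150001 bp) by at least 1 bp, and no measured value entered that choice. The 12 peak lists of the series held 600 such peaks among 1491780 in all. Merged where they overlapped or touched, these peaks formed 203 open regions of 498516 in the genome. At the borders of the interval, the last region inside at the high end lay at chr5:133020268-133020728 and the first outside at chr5:133055527-133056185, and at the low end the first inside lay at chr5:131903912-131904311 and the last outside at chr5:131898162-131898361.

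ATAC-seq uses a transposase to insert sequencing adapters into accessible DNA. The tissue was neocortex, and the mice were of the CD1 strain. GFP from the Golli-GFP transgene marked the deep-layer neurons, whose 3 groups are E13.5, then E16.5, then E18.5. The upper-layer neurons carried an electroporated plasmid with GFP behind a Cdk5r promoter, given in utero at E15.5, and their 3 groups are E17.5, then P1, then P5. There were 2 replicates in each of the 6 groups, each pooling 2 to 8 embryos per the labels, and cells positive for GFP were sorted. No group carried a mutation or drug treatment in the labels. Only upper-layer neurons were sampled after birth, so birth and population cannot be told apart in the P1 and P5 lists. Whether replicates came from different litters is not in the labels, so the p-values reflect spread among these lists that may be technical. The sorted cells were not checked against marker genes, since no mm9 annotation was used.

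AUTS2 is named for its disruption in people with autism and intellectual disability. In the nucleus the protein joins a variant Polycomb repressive complex, together with casein kinase 2 and the acetyltransferase p300, that activates genes in neurons. In the cytoplasm it acts through Rac1 on the actin skeleton and supports neuronal migration and the growth of neurites. In the neocortex its gene is a known target of TBR1, a transcription factor of deep-layer neurons. Auts2 is transcribed towards lower coordinates, so its 5′ end lies towards the high-coordinate end of the interval and its 3′ end towards the low-coordinate end. In a GRCm38.p6 gene table, read here for gene order alone, the gene spans 1105888 bp. Inside it lies 1 long non-coding RNA gene, 4930563F08Rik. The nearest protein-coding neighbours of Auts2 are Galnt17, which encodes a glycosyltransferase, and Castor2, which encodes a protein of the mTORC1 pathway.

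The lists held 96452 to 164508 peaks, with a mean of 121705 ± 21347 in deep-layer and 126925 ± 20095 in upper-layer lists (SD, n = 6 each). These numbers stand here for depth, since the lists give no reads, heights or scores. The 2 upper-layer E17.5 lists stand apart: they shared more of their length than any other replicate pair, they shared 103 identical intervals, and the peak names in both carry the same library name. They are kept as 2 lists as labelled, and the population difference and the counts of regions open at E17.5 are also given without the pair, with the pair counted once or with 1 of its lists. In a bulk list, a region open in fewer cells and a region less open in each cell cannot be told apart.

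Upper-layer neurons had more peaks in Auts2 than deep-layer neurons relative to the length of the lists, but the difference did not pass the adjusted test. The deep-layer lists had 35 and 76 peaks at E13.5. They had 25 and 31 at E16.5, then 22 and 36 at E18.5. Upper-layer E17.5 replicates had 90 and 76 peaks, P1 replicates 43 and 50, and P5 replicates 55 and 61. Deep-layer E13.5 replicate 2 was the one deep-layer list within the upper-layer range, and it was also the longest deep-layer list, with 153892 peaks. The part of list length in that value was not tested.

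Per 10000 peaks of the list, the deep-layer lists had 2.69 and 4.94 Auts2 peaks at E13.5, 1.97 and 3.12 at E16.5, and 2.28 and 2.91 at E18.5. The upper-layer lists had 5.47 and 6.17 at E17.5, 3.74 and 4.16 at P1, and 4.19 and 5.69 at P5. The means were 2.99 ± 1.04 in deep-layer and 4.90 ± 0.995 in upper-layer lists (SD, n = 6 each), a difference of -1.92 (p = 0.0130, exact permutation test over 924 splits, two-sided). Adjusted over the 6 single-value tests of this gene the p was 0.0779 (exact permutation test, Benjamini-Hochberg). Without deep-layer E13.5 replicate 2 the difference was -2.31 and the adjusted p 0.0260 (exact permutation test). Every upper-layer list was then above every deep-layer list, which was fixed in advance. The list left out was the 1 deep-layer list within the upper-layer range. With any other list left out the adjusted p was 0.0519 to 0.156 (exact permutation tests).

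The difference did not rest on the E17.5 pair alone in its direction. With the P1 and P5 lists as the sole upper-layer lists it was -1.46 (p = 0.0524, exact permutation test), and with the E17.5 pair counted once it was -1.73 (p = 0.0260, exact permutation test). Among prenatal lists alone, the 2 E17.5 lists were above all 6 deep-layer lists, with a difference of -2.83 and the smallest p that this design allows (p = 0.0357, exact permutation test over 28 splits). All 3 of these comparisons were chosen with the values in view. Other stretches of the genome often differed between the populations too. Of 2083 autosomal windows of the interval's length on a fixed grid, 19.6% were higher in upper-layer lists at an unadjusted exact permutation p under 0.05, so such a difference is common among windows. The deep-layer mean over the upper-layer mean was 0.609 for Auts2 against a median of 1.10 for the windows, 14.9% of which had a lower ratio.

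Between first and last stages, the number of Auts2 peaks did not differ beyond the spread. Deep-layer lists averaged 3.82 ± 1.59 per 10000 at E13.5 and 2.59 ± 0.443 at E18.5 (SD, n = 2 each), a difference of -1.22 (p = 0.333, exact permutation test over 90 assignments of stage labels, smallest possible 0.0222). Upper-layer lists averaged 5.82 ± 0.493 at E17.5 and 4.94 ± 1.06 at P5 (SD, n = 2 each), a difference of -0.882 (p = 0.422, exact permutation test). Prenatal lists of both populations averaged 3.69 ± 1.59 (SD, n = 8) and postnatal lists 4.44 ± 0.854 (SD, n = 4), a difference of -0.749 (p = 0.396, exact permutation test). Among upper-layer lists alone it turned to 1.38 (p = 0.267, exact permutation test), and without P5 replicate 2 it was -0.33. The order of the 6 group means ran from upper-layer E17.5 through P5, P1, deep-layer E13.5 and E18.5 to E16.5. Neighbouring groups in this order overlapped in their values, except that both P5 lists were above both P1 lists, by 4.19 against 4.16 at the closest.

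**Figure D1:**
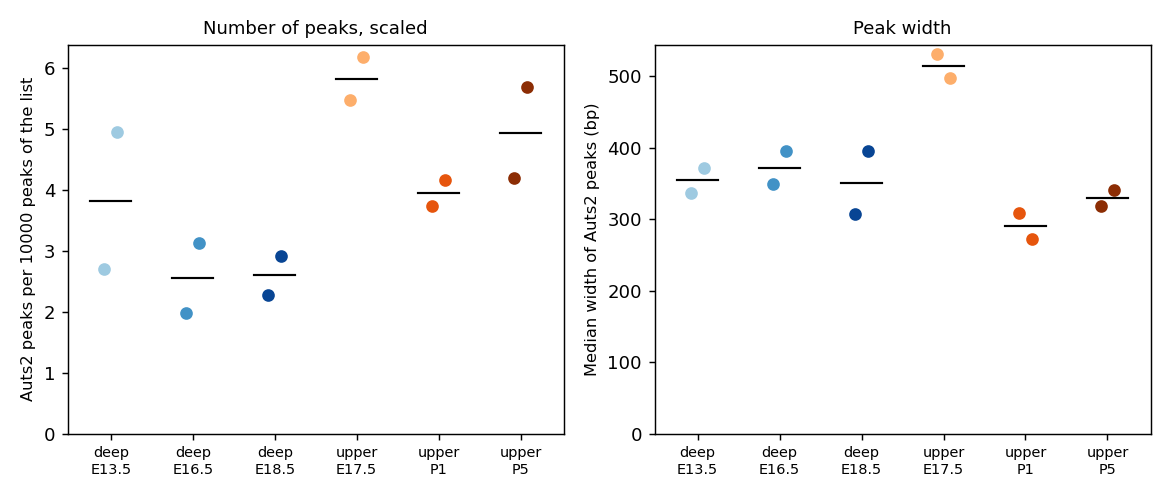
Auts2 peaks per 10000 peaks of the list (left, vertical axis from 0) and median width of Auts2 peaks in bp (right, vertical axis from 0) for the 6 groups; points are single lists and horizontal lines are the means of 2 replicates. The upper-layer E17.5 group has the highest mean on both axes, with P5 replicate 2 above E17.5 replicate 1 on the left, and deep-layer E13.5 replicate 2 is the one deep-layer point among the upper-layer values on the left.

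Auts2 was neither empty nor rich in peaks. It carried 3.94 peaks per 10000 on average over the 12 lists, where the windows had a median of 4.56, with quartiles at 3.32 and 5.85. Relative to the peak density of each list over the main chromosomes, the density in Auts2 was 0.453 to 1.136 times in deep-layer lists and 0.870 to 1.419 times in upper-layer lists. The stretches of the same length on both sides held fewer peaks in each of the 12 lists, 8 to 39 on the lower side and 6 to 38 on the higher side. The narrowest margin was in P1 replicate 1, with 43 peaks in Auts2 and 38 and 32 beside it. Peaks covered between 0.693% of the interval in deep-layer E18.5 replicate 1 and 4.87% in upper-layer E17.5 replicate 1.

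Auts2 peaks were broadest in the upper-layer E17.5 lists. Their median width was 531.5 and 497.5 bp there, 309 and 273 bp at P1, and 318 and 341 bp at P5. In deep-layer lists it was 337 and 372.5 bp at E13.5, 349 and 396 bp at E16.5, and 307.5 and 395 bp at E18.5. The deep-layer values overlapped the postnatal ones, and both E17.5 values were above all others. Prenatal lists averaged 398 ± 78.1 bp (SD, n = 8) and postnatal lists 310 ± 28.3 bp (SD, n = 4), a difference of 88 bp (p = 0.0606, exact permutation test, adjusted p = 0.166). The median width over all peaks of a list was also highest at E17.5, at 481 and 489 bp. It was 302 to 326 bp after birth and 390 to 476 bp in deep-layer lists. The deep-layer and postnatal lists did not overlap in this width, unlike in their Auts2 values. The part of the whole-list width in the Auts2 values was not tested.

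**Figure D2:**
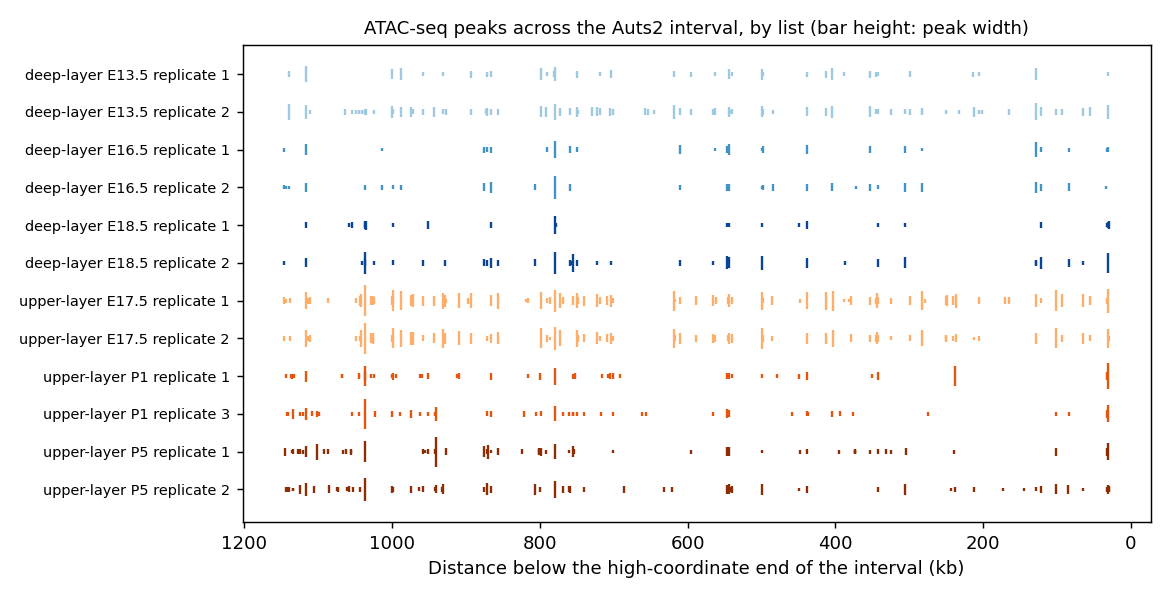
Peaks across the Auts2 interval in the 12 lists, 1 per line; the horizontal axis is the distance below the high-coordinate end of the interval in kb, so the 5′ end of the gene is at the right, and the height of each bar is proportional to the peak's width. The E17.5 lists are the fullest and have no peak between 650 and 700 kb, the E16.5 and E18.5 lists hold 22 to 36 peaks each, and 5 positions recur in all 12 lists.

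Peaks were not spread evenly along the gene. Divided into 4 equal sections, the interval held 223 of the 600 peaks in the lowest-coordinate section, towards the 3′ end, then 135 and 144, and 98 in the highest-coordinate section, towards the 5′ end. In the prenatal lists 18.1% ± 3.62 (SD, n = 8) of the Auts2 peaks lay in the highest-coordinate section and in the postnatal lists 11.8% ± 7.56 (SD, n = 4), a difference of 6.27 percentage points (p = 0.0828, exact permutation test, adjusted p = 0.166). Of the postnatal lists, 3 had 6.98% to 10.0% there and P5 replicate 2 had 23.0%. Without that list the difference was 9.99 points with an adjusted p of 0.0364 (exact permutation test), and with 3 equal sections in place of 4 it was 9.27 points with an adjusted p of 0.0390 (exact permutation test).

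After birth the peaks lay more towards the 3′ end, a measure chosen after the data had been seen. The lowest-coordinate section held 48.8% and 44.0% of the Auts2 peaks in the P1 lists and 45.5% and 45.9% in the P5 lists. It held 25.7% and 32.9% at deep-layer E13.5, 24.0% and 35.5% at E16.5, 40.9% and 33.3% at E18.5, and 32.2% and 34.2% at upper-layer E17.5. No prenatal list reached a postnatal one. The means were 32.3% ± 5.37 (SD, n = 8) and 46.0% ± 2.03 (SD, n = 4), a difference of -13.7 points (p = 0.00202, the smallest that the exact permutation test can give here, adjusted over 7 tests p = 0.0141). Such a separation was not rare: in 18.4% of 1790 windows with at least 10 peaks per list, the shares of prenatal and postnatal lists in the lowest section did not overlap either. The adjusted p was 0.104 with the interval trimmed by 50 kb on each side, 0.0848 with thinned lists and 0.141 with peaks of at least 300 bp (exact permutation tests). Among upper-layer lists alone, where the design allows no p under 0.0667, the difference was -12.8 points (p = 0.0667, exact permutation test).

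In bins of 50 kb, the lowest-coordinate bin held the most peaks, 55 over the 12 lists. The P1 lists had 5 and 8 peaks in it, the P5 lists 8 and 8, the E17.5 lists 6 and 5, and the deep-layer lists 1 to 5. In the bin next to it, the P5 lists had 6 and 6 peaks, the P1 lists 2 and 2, and the 8 prenatal lists 0 to 2. A second dense stretch lay 750 to 800 kb below the high end, with 53 peaks, and held 2 to 5 peaks in every deep-layer list and 4 to 7 in every upper-layer list. The emptiest bin was 150 to 200 kb below the high end, with 4 peaks in all.

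**Figure D3:**
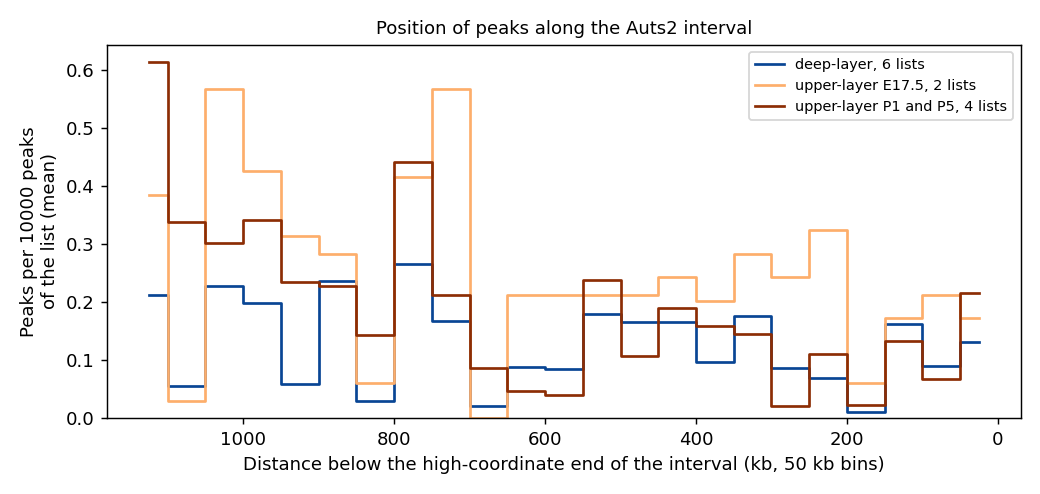
Mean number of peaks per 10000 peaks of the list (vertical axis, from 0) in 50 kb bins along the Auts2 interval (horizontal axis, distance below the high-coordinate end in kb, 5′ end of the gene at the right) for the 6 deep-layer lists, the 2 upper-layer E17.5 lists and the 4 postnatal lists. The postnatal line is highest in the bin at the far left, the 3′ end, where it reaches 0.614.

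Of the 203 regions, 109 (53.7%, against 46.8% in the genome) were open in 2 or more lists. The other 94 were open in a single list (46.3%, against 53.2% in the genome), and 72 of these 94 were found in a P1 or P5 list. That excess was near the genome's. Of the regions open in each postnatal list, 30.5% to 42.6% were open in no other list, against 28.3% to 43.8% in the genome. In the prenatal lists these shares were 0% to 14.9%, against 2.37% to 15.2%. In 6 or more lists, 27 regions were open (13.3%, against 15.54% in the genome). The median length was 253 bp for regions open in 1 list and 979 bp for those open in all 12. By population, 107 regions were open in upper-layer lists alone, 20 in deep-layer lists alone and 76 in both. The deep-layer share was 9.85% here and 21.4% in the genome, and the upper-layer share 52.7% and 50.1%.

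**Figure D4:**
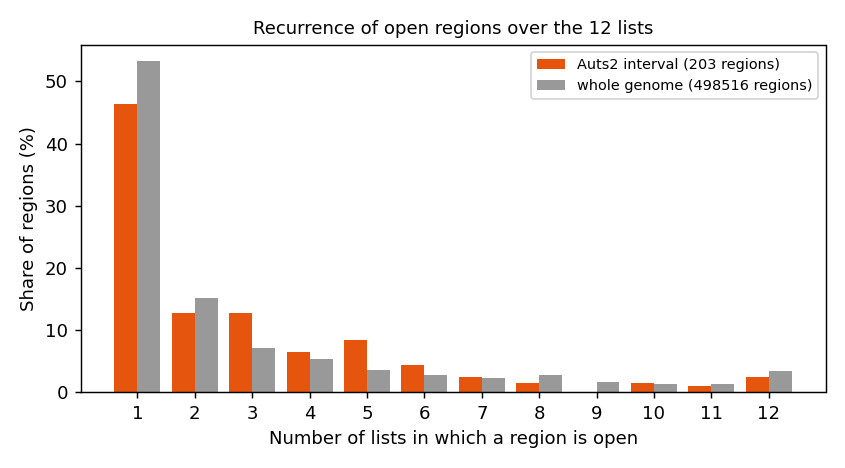
Share of open regions in percent (vertical axis, from 0) by the number of lists in which they were open (horizontal axis), for the 203 regions of the Auts2 interval and the 498516 regions of the genome. Regions open in a single list are the most common in both, at 46.3% and 53.2%.

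Open in all 12 lists were 5 regions of Auts2 (2.46%, where 3.42% of all regions were so). The broadest, at chr5:132269749-132271357, lay 779 kb below the high end of the interval, and its covered length was lowest at 912 bp in P1 replicate 3, 1049 bp in the median and highest at 1403 bp in E17.5 replicate 2. Every list covered more of this region than of any of the other 4. The region at chr5:131933487-131934673, near the 3′ end, covered 928 and 858 bp at deep-layer E13.5, 639 and 516 bp at E16.5, and 351 and 540 bp at E18.5. In upper-layer lists it covered 1040 and 976 bp at E17.5, 663 and 756 bp at P1, and 618 and 785 bp at P5. The first stage of each population was above the later stages there, a description without a test. The other 3 lay at chr5:132505459-132506205, chr5:132611643-132612621 and chr5:132183290-132183943, with covered lengths of 285 to 738 bp, 281 to 979 bp and 207 to 653 bp. In all 5 regions the highest value was in an E17.5 list. Together the 5 regions made up 8.45% to 32.1% of the length covered in Auts2, least in E17.5 replicate 1 and most in deep-layer E18.5 replicate 1.

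**Figure D5:**
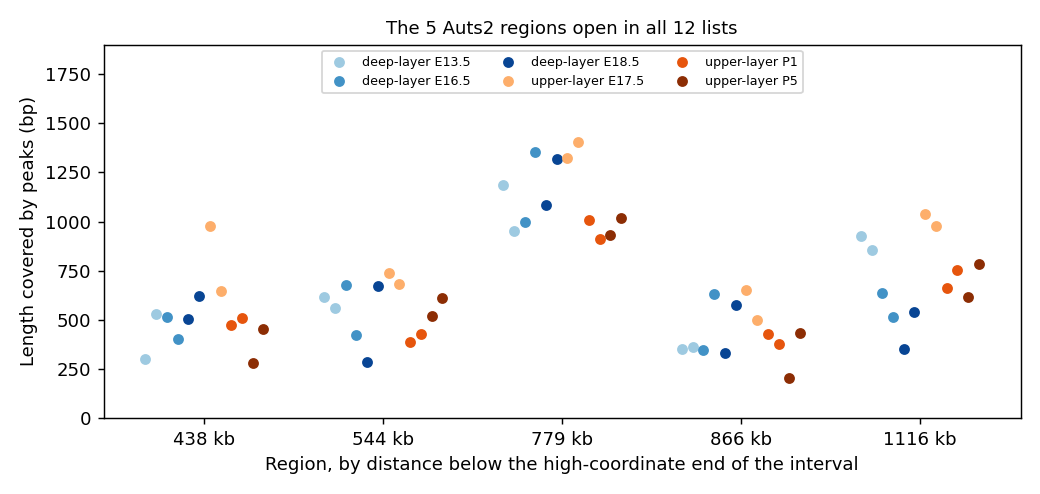
Length covered by peaks in bp (vertical axis, from 0) in the 5 Auts2 regions open in all 12 lists, ordered by distance below the high-coordinate end of the interval (horizontal axis, equal steps, not to scale); each point is a list, coloured by group. The region at 779 kb is the broadest, between 912 and 1403 bp.

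A further 5 regions, picked after their values were seen, were open in 10 or 11 lists. The one nearest the high-coordinate end, at chr5:133018398-133020103, was open in every list except deep-layer E16.5 replicate 2. Its covered length was 218 and 821 bp at deep-layer E13.5, 330 bp in E16.5 replicate 1, and 877 and 1238 bp at E18.5. In upper-layer lists it was 1444 and 1102 bp at E17.5, 1535 and 1014 bp at P1, and 1057 and 934 bp at P5. The 3 lowest values, 218, 330 bp and no peak, were in E13.5 and E16.5 lists, and the lowest upper-layer list had 934 bp. The region at chr5:132012984-132014976 was also low at E13.5 and E16.5. It covered no peak and 562 bp at E13.5, no peak and 284 bp at E16.5, and 1273 and 1745 bp at E18.5. In the upper-layer lists it covered 1836 and 1901 bp at E17.5, 1734 and 1760 bp at P1, and 1244 and 1336 bp at P5. The E13.5 and E16.5 lists lay below all other lists, of which the lowest had 1244 bp.

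The region at chr5:132503578-132504367 was closed in both E13.5 lists and open in the 10 others, with 214 to 790 bp. It was the 1 Auts2 region (0.493%) closed in both E13.5 lists and open in both E18.5 lists, a pattern of 2.8% of all regions. The nearby region at chr5:132505459-132506205 was open in all 12 lists. The regions at chr5:132550053-132551413, open in 11 lists, and chr5:132707304-132707960, open in 10, had 200 to 1276 bp and 200 to 496 bp where they were open.

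No Auts2 region was open in all 6 lists of one population and in none of the other, patterns of 0.347% (deep-layer) and 0.0235% (upper-layer) of all regions. By Fisher's exact test with Benjamini-Hochberg adjustment over 42767 regions, no region of the genome passed in either direction (0% called). That test could make no call here, since regions open in all lists of one population and none of the other had an adjusted p of 0.0501. The smallest adjusted p in Auts2 was 0.109 (Fisher's exact test). Among the 31 Auts2 regions tested, 1 had an unadjusted p under 0.05 with more upper-layer lists open (1.64% of all regions tested) and 0 with more deep-layer lists open (12.3% of all regions tested). That region, at chr5:132049508-132050083, had no peak in the 6 deep-layer lists, 562 and 421 bp at E17.5, 200 and 390 bp at P1, and 403 bp in P5 replicate 2 (p = 0.0152, Fisher's exact test).

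Of the regions tested for birth, 1 passed. The region at chr5:131915335-131916179, near the 3′ end, had 309 and 597 bp at P1 and 469 and 204 bp at P5, and no peak in any of the 8 prenatal lists (adjusted p = 0.0197, Fisher's exact test with Benjamini-Hochberg adjustment over 113942 regions, of which 2.4% were called in this direction). It was not called with age-overlapping stages, thinned lists, all regions in the adjustment or permutation within replicate number, settings under which no region of the genome was called in this direction, nor with the widest peaks, peaks of at least 300 bp or 50% of the region covered. It was the 1 Auts2 region of 203 with that pattern, which 0.549% of all regions had. At an unadjusted p under 0.05 there were 4 such regions among the 64 tested in Auts2 (10.7% of all regions tested). The other 3, at chr5:131925243-131926124, chr5:132087189-132087629 and chr5:132108480-132110420, were open in 3 postnatal lists and in no prenatal list (p = 0.0182 each, adjusted p = 0.0626, Fisher's exact test). The last of them covered 807 bp in P1 replicate 3 and 1800 and 705 bp at P5.

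In the other direction no Auts2 region passed Fisher's exact test, adjusted or unadjusted. In the genome, 7.84% of the regions tested were more often open before birth at an adjusted p under 0.05 and 18.4% at an unadjusted one. None of the 203 Auts2 regions was open in all 8 prenatal lists and closed in all postnatal ones, a pattern of 1.79% of all regions. Open in every prenatal list were 6 Auts2 regions (2.96%, against 8.11% in the genome), of which 5 are the regions open in all 12 lists. All 6 were open in at least 3 of the 4 postnatal lists. The single P1 and P5 lists were open in 83.3% to 100% of these 6. In the genome, they were open in 53.3% to 65.5% of the regions open in every prenatal list.

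Between stages, regions open in both lists of the first stage and in neither of the last outnumbered those with the opposite pattern. In deep-layer neurons 18 regions (8.87%) had a peak in each E13.5 list and none at E18.5, where 5.65% of all regions were so, and 1 region had the opposite pattern. In upper-layer neurons 47 (23.2%) were open in both E17.5 lists and in neither P5 list, where 13.3% of all regions were so. The opposite pattern was held by 6 (2.96%), where 2.97% of all regions were so. With 2 lists per stage no test per region was made. With a single E13.5 list standing for its pair, 20 (replicate 1) and 49 (replicate 2) regions were closed by E18.5, which is 9.85% and 24.1% against 10.2% and 12.9% in the genome, so the Auts2 share was above the genome's with replicate 2 and not with replicate 1. With a single E17.5 list, 56 and 47 regions were closed by P5, which is 27.6% and 23.2% against 22.1% and 14.6% in the genome. The first-stage lists were longer on average in both populations, and the part of list length in these counts was not tested. The counts also depend on how far replicates share regions. Open in either list were 93 regions at E17.5 and 93 at P5, but 73 and 20 were open in both. These are 78.5% and 21.5%, against 66.0% and 23.9% in the genome. At E13.5 and E18.5, 31 of 77 and 13 of 40 were open in both, so a net closing cannot be read from these counts.

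The regions that closed along both courses overlapped. Of the 18 deep-layer regions, 13 were among the 47 upper-layer ones, which is 72.2% of the former and 27.7% of the latter. In the genome these shares were 42.4% and 18.1%. Both sets were also more common in Auts2 to begin with. The upper-layer set held 23.2% of Auts2 regions against 13.3% of all regions, and the deep-layer set 8.87% against 5.65%. The part of these higher base shares in the overlap was not tested. With either E17.5 list alone for its pair the overlap was again 13 of 18, against 53.8% (replicate 1) and 45.9% (replicate 2) in the genome. With a single E13.5 list it was 14 of 20 for replicate 1, or 70.0% against 28.3%, and 25 of 49 for replicate 2, or 51.0% against 25.9%. Each E17.5 list was open in 17 of the 18, against 61.1% and 52.6% for such regions in the genome, and the E16.5 lists were open in 4 and 5 of them, or 22.2% and 27.8% against 29.4% and 13.02% in the genome. The region of the 18 with the widest E13.5 peaks, at chr5:132645543-132646880, covered 717 and 720 bp at E13.5 and 1195 and 991 bp at E17.5, 482 bp in E16.5 replicate 2, 390 bp in P1 replicate 3 and nothing in the other lists. Another, at chr5:132250664-132251876, had 743 and 673 bp at E13.5 and 1053 and 1191 bp at E17.5, no peak at E16.5 or E18.5, and 297 to 473 bp in 3 postnatal lists. The region at chr5:131910779-131911768 followed them, with 387 and 990 bp at E13.5.

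The 3 regions with the widest E17.5 peaks among those closed at P5 were also open at E13.5, and 1 of them, chr5:132645543-132646880, is given with the deep-layer set. At chr5:132050300-132051537, E17.5 lists covered 1237 and 1200 bp, E13.5 lists 600 and 732 bp, and no other list had a peak. At chr5:132431136-132432469 the values were 1192 and 1143 bp at E17.5 and 337 and 800 bp at E13.5, again with no other list open. Of the 47 regions, 16 and 31 were open in the E13.5 lists, 8 and 7 in the E16.5 lists, 0 and 8 in the E18.5 lists, and 2 and 3 in the P1 lists. In the genome, the shares of such regions were 58.3% and 63.8% for E13.5, 49.3% and 37.6% for E16.5, 28.5% and 45.1% for E18.5, and 5.77% and 11.5% for P1. The Auts2 shares were 34.0% and 66.0% for E13.5, 17.02% and 14.9% for E16.5, 0% and 17.02% for E18.5, and 4.26% and 6.38% for P1.

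Of the 6 regions closed at E17.5 and open in both P5 lists, the 3 with the largest median width of their single P5 peaks are given. They follow in that order, starting with chr5:132744128-132745165, which covered 452 and 685 bp at P5. That region was also open in 5 deep-layer lists, at 200 to 665 bp, so it was closed in E17.5 and P1 lists and in E13.5 replicate 1. The next, at chr5:132174762-132175414, had 617 and 329 bp at P5, 369 and 477 bp at E16.5 and 420 bp in E18.5 replicate 2. The region at chr5:132108480-132110420 followed by that median, but it covered the most at P5, 1 peak of 1800 bp in replicate 1 and 2 peaks of 235 and 470 bp in replicate 2, and had no deep-layer peak.

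Of the 6 groups, upper-layer E17.5 had the most regions open in both of its lists and in no other list. Both E17.5 lists were open in 73 Auts2 regions, and 17 of these were closed in all deep-layer lists. The 17 are 8.37% of all 203 Auts2 regions, against 3.25% of all regions in the genome. With a single E17.5 list, 26 (replicate 1) and 18 (replicate 2) open regions were closed in all deep-layer lists. These are 12.8% and 8.87% of the 203, against 8.74% and 3.91% in the genome. Of the 17 open in both, 12 were open in no other list at all. The 12 are 5.91% of the 203, where 2.63% of all regions were so. The widest of the 12 lay at chr5:132007315-132008355, with 758 and 1041 bp, at chr5:132022022-132022652, with 530 and 607 bp, and at chr5:132023785-132024381, with 533 and 548 bp. All 3 lie in the lowest-coordinate section of the interval. The corresponding counts for pairs open alone were 1 at deep-layer E13.5 (1.36% of all regions), 1 at E16.5 (0.134%), 0 at E18.5 (0.405%), 0 at P1 (1.12%) and 1 at P5 (0.817%). These single regions lay at chr5:132454748-132455149 with 299 and 380 bp (E13.5), at chr5:132036870-132037132 with 200 and 263 bp (E16.5) and at chr5:132289109-132289465 with 202 and 357 bp (P5). The E17.5 lists shared the most length of all replicate pairs, and the part of that likeness in the count of 12 was not tested. With a single E17.5 list, 18 (replicate 1) and 12 (replicate 2) regions were open in no other group, or 8.87% and 5.91% against 7.53% and 3.20% in the genome. The rank of E17.5 depends on the rule that both lists be open. Regions open in 1 list only numbered 6 and 0 at E17.5, 15 and 16 at P1, and 23 and 18 at P5. Of the regions open in either list, 73 of 93 were open in both at E17.5, 17 of 74 at P1 and 20 of 93 at P5.

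By length, replicates shared less in Auts2 than in the genome, except at E17.5. By regions open in both lists of those open in either, deep-layer E16.5 was also above the genome, at 52.8% against 52.0%. The other deep-layer groups and the postnatal groups were below it by that measure too. The Jaccard index is the length open in both lists over the length open in either. It was 0.708 for the E17.5 pair in Auts2 and 0.641 in the genome. The deep-layer pairs had 0.353 (E13.5), 0.406 (E16.5) and 0.294 (E18.5) in Auts2, against 0.520, 0.476 and 0.514 in the genome. The P1 and P5 pairs had 0.257 and 0.186, against 0.272 and 0.254. Between groups, E13.5 and E17.5 lists were the most alike in Auts2, at a mean of 0.311 over 4 pairs, against 0.409 in the genome. The pairs with E13.5 replicate 1 had 0.219 and 0.265 in Auts2, and those with replicate 2 had 0.360 and 0.399. E18.5 lists had a mean of 0.256 with P1 lists and 0.158 with E17.5 lists, the reverse of the order in the genome, where these means were 0.204 and 0.352. These indices are descriptions over lists that recur in several pairs, with no test.

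The windows of the grid whose peaks per 10000 were most like Auts2 over the 12 lists lay on chromosome 4 from 123050108 to 124200108 (Pearson's r = 0.896, Spearman's rho = 0.916), on chromosome 7 from 124200109 to 125350109 (r = 0.879, rho = 0.874) and on chromosome 11 from 106950094 to 108100094 (r = 0.864, rho = 0.860). Their deep-layer means were 2.83, 2.92 and 2.92 per 10000 and their upper-layer means 4.24, 4.45 and 5.05. The windows were picked by their likeness to Auts2 over these lists, so lower deep-layer means largely followed from the choice. The median r over all windows was -0.05. The points share the lists and their lengths, and the r is a description of 12 lists.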

How the data were processed

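The data were 12 ATAC-seq peak lists, 1 for each sample. The deposited values are peak positions of the authors (chromosome, start, end and name), with no score, height or p-value, and a peak's width is its end minus its start. The authors worked on mm9, and MACS2 2.1.0, Picard 1.14.0, Bowtie2 and cutadapt are listed, per the submitters' processing notes. Tool settings, read numbers and any read shift for the transposase are not stated in the sources used here.

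Auts2 peaks were those overlapping the interval by at least 1 bp, and they were scaled to 10000 peaks of the list because lists differed in length. The number of peaks limits the precision, since a weak region can be missed in a shorter list. Regions were made by merging overlapping or touching peaks of all lists, genome-wide, and counted as open wherever a list covered 1 bp or more. Single values were compared by exact permutation of list labels, two-sided, with Benjamini-Hochberg adjustment over 6 tests. Regions were compared by Fisher's exact test, two-sided, adjusted over all regions of the genome whose number of open lists allows p under 0.05. Both region comparisons were tested on simulated data. Planted regions were open in all prenatal or all deep-layer lists and in no other list. With 200 planted, 0% passed the adjusted threshold in either comparison. With 10000 planted, 100% passed, and 86 unchanged regions (birth) and 25 (population) were called too. The adjusted test can therefore miss fully separated regions where such regions are few.

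The gene, the lists of regions and the tests were chosen with earlier results of these data known. Named regions were those open in all 12 lists and, for each pattern, the 3 with the largest median peak width; regions open in 10 or 11 lists, and those with an unadjusted p under 0.05, were picked after their values were seen. Lists of pathway and marker genes are not analysed here, since no mm9 annotation was used. Alternatives were each list left out, equal list lengths, a width filter, other borders, other scaling, labels permuted within replicate number, age-overlapping stages, and other definitions of an open region. Python 3.11.15, numpy 2.4.6, scipy 1.17.1 and matplotlib 3.10.9 were used.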

Additional observations from a re-analysis of the deposited data

Results flagged for a closer look

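Deep-layer E13.5 replicate 2 had 76 Auts2 peaks and stood apart from the 5 other deep-layer lists, which had 22 to 36. Its gap to the nearest list, divided by the range of the 6 values, was larger than Dixon's 95% critical value for 6 values. Of 16 sets of values examined in this way 1 stood out, and chance picks about 1 in 20. Scaled to list length, its 4.94 peaks per 10000 did not pass the same criterion.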

How the results depend on the processing

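The deep-layer minus upper-layer difference kept its direction under all 24 alternatives, and leaving out 1 list gave -2.31 to -1.66 per 10000. It passed the adjusted threshold in 1 alternative, without deep-layer E13.5 replicate 2, the 1 deep-layer list within the upper-layer range. The prenatal minus postnatal difference turned to 1.38 among upper-layer lists alone (p = 0.267, exact permutation test, smallest possible 0.0667), and leaving out 1 list gave -1.10 to -0.33. The 2 stage differences and the width difference kept their direction and stayed above the threshold in every alternative run. With 1 list left out they were -2.34 to -0.0985 (deep-layer), -1.63 to -0.133 (upper-layer) and 69.0 to 100.96 bp. For the stage differences, staying above the threshold was close to fixed by the design. With all 6 lists of a population its smallest p is 0.0222 before adjustment over 6 tests (exact permutation test). The highest-section difference was 4.66 to 9.99 points with 1 list left out and 9.27 with 3 equal sections of the interval. The lowest-section difference no longer passed with thinned lists (-12.7 points), peaks of at least 300 bp (-15.1), a trimmed interval (-10.5) and upper-layer lists alone (-12.8), and was -14.9 to -12.5 with 1 list left out.

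The 1 region called by birth became 3 without upper-layer P1 replicate 1, 2 without P5 replicate 1, and 0 with the widest peaks, thinned lists, peaks of at least 300 bp, age-overlapping stages, 50% of the region covered, or all regions in the adjustment (2, 4, 2, 3, 0 and 4 at an unadjusted p under 0.05 by Fisher's exact test). With 1 list left out the range was 1 to 3. The prenatal, deep-layer and upper-layer counts were 0 in every alternative.

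Replicate numbers are shared between groups in the labels, but same-numbered lists did not deviate together throughout: the correlations of their deviations were -0.114 to 0.0415 over regions of the genome open in 2 or more lists, and -0.116 to 0.183 over those of Auts2. With the replicate block, permuting within replicate number, the population difference of -1.92 had an adjusted p of 0.0600 and the lowest-section difference of -13.7 one of 0.0467 (exact permutation tests). The region called by birth was not called with the replicate block (0, with 1 at an unadjusted p under 0.05).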
